A study of Mus musculus with 80 samples.

Results

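Within one sort of neonatal mouse germ cells, the cells with the most and the least RNA of mitotic genes were set against each other. The 71 cells, Oct4-GFP positive and KIT negative, were ranked by a mitotic score, and the 24 highest (mitosis-high) and 24 lowest (mitosis-low) were taken, leaving 23 between them. The score was the mean log2(CPM + 1) of Mki67, Top2a, Ccnb1, Cdc20, Plk1, Aurka, Cenpf and Tpx2, where CPM is the expected count of a gene scaled to 1000000 counts of its cell. Mitosis-high and mitosis-low cells, and those between, therefore share strain, sex, age and sort: male B6;CBA-Tg(Pou5f1-EGFP)2Mnn/J mice at postnatal day 5.5. In the transgene, regulatory sequence of Pou5f1 (Oct4) drives green fluorescent protein, and every cell was sorted for that fluorescence and for the absence of the receptor KIT. Each was captured on its own in a Fluidigm C1 chip. The labels do not tie them to animals, so they count as 1 sample. The series also holds bulk libraries of CD87 positive and CD87 negative cells (2 each) which the choice of cells did not use and which share the strain, sex and age of the cells. CD87, the product of Plaur, is the urokinase receptor.

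Undifferentiated spermatogonia, the stem and progenitor cells of the testis, expand by mitosis in the first week after birth. A dividing cell passes through G1, S phase (DNA replication), G2 and mitosis, and its RNA content follows this order. Genes of replication peak around the entry to S phase under E2F factors, while genes of the spindle, kinetochore and cytokinesis accumulate late, in G2 and mitosis. The late genes are known to be held down by the DREAM complex and activated by B-MYB with MuvB and by FOXM1, through a promoter element called CHR (TTTGAA or, less often, TTTAAA), frequently beside CCAAT boxes that bind NF-Y.

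The promoters of 3 of the genes described here are shown, to let these elements be seen beside the values. They were chosen as the genes of the mitotic lists with the largest differences among those whose window held both a CHR-type element and a CCAAT box. Each window holds 250 bases before and 50 after the annotated start, 5′ to 3′ on the gene's own strand, from RefSeq on GRCm38.p6. Capitals mark TTTGAA (read as TTCAAA on the other strand), its variant TTTAAA, which is its own reverse, and the box CCAAT (read as ATTGG on the other strand).
Ckap2l (a protein of the spindle poles; chr2:129297163-129297462, minus strand): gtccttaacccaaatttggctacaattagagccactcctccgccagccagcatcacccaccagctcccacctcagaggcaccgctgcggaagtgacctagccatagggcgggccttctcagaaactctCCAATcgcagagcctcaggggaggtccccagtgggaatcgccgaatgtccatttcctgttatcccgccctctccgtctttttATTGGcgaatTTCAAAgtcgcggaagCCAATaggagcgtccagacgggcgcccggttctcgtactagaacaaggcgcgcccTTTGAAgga
Gtse1 (a microtubule-binding protein of G2 and mitosis; chr15:85859457-85859756, plus strand): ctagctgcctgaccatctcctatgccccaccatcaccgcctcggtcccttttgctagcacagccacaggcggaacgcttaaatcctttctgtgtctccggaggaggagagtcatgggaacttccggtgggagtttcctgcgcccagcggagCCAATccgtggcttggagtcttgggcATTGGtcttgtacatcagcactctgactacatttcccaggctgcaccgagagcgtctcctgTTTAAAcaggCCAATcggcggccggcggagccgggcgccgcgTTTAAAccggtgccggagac
Kif23 (the motor of the central spindle; chr9:61946750-61947049, minus strand): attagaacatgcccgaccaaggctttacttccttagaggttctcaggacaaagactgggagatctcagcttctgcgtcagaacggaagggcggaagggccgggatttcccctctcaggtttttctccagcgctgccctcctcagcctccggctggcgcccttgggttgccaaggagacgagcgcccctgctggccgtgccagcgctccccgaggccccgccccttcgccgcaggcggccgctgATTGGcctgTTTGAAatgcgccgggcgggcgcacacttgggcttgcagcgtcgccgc

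The Ckap2l window held 2 matches to TTTGAA and 3 to CCAAT, the Gtse1 window held 2 to TTTAAA and 3 to CCAAT, and the Kif23 window held 1 of each of TTTGAA and CCAAT. Gtse1 has 2 windows in the table, of which 1 is shown. Over all 32851 windows of the RefSeq table, 17.89% held TTTGAA, 13.16% held TTTAAA and 37.41% held CCAAT, and 10.73% held a CHR-type element together with CCAAT. Neighbouring matches may share a base. Of the 118 mitotic genes described below, 97 had a promoter there. Of their 117 windows, 46.15% held TTTGAA, 14.53% held TTTAAA, 61.54% held CCAAT and 38.46% held both kinds. Of the 45 of them that were higher by at least 1 in mitosis-high cells, 39 had a promoter. Of those 43 windows, 62.79% held TTTGAA, 13.95% held TTTAAA, 74.42% held CCAAT and 60.47% held both kinds. A match is a description of the letters, not evidence of binding.

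Mitosis-high cells had 182584 to 6820422 expected counts (median 1627195), against 754677 to 3709569 (median 1440886) in mitosis-low cells. The median number of genes with an expected count of at least 1 was 10686 in mitosis-high and 10200 in mitosis-low cells, and 8684 against 8183 after every cell was thinned to 182571 counts. Across the 71 cells the score had a Spearman rho of -0.0041 with total counts and 0.242 with genes detected. Both come from the same counts. No well position was used for more than 1 cell. No molecular identifiers mark the counted PCR reads, and doublets were not examined. The deposited table places each cell in a cluster, I to IV. Cluster II gave 16 of the mitosis-high and 6 of the mitosis-low cells, and cluster III gave 5 of the mitosis-high and 12 of the mitosis-low cells. Cluster I gave 1 mitosis-high and 4 mitosis-low cells, and cluster IV gave 2 of each. Values within cluster II (10 highest against 10 lowest cells) and cluster III (8 against 8) are therefore given beside many of the results, though not beside each. These sets were ranked inside their cluster and are not the same cells as the sides. Cluster II has 6 mitosis-low cells, so its 10 lowest include cells from between the sides. Cluster III has 5 mitosis-high cells, so its 8 highest include cells from between as well. Pan-germ cell genes summed to 3987 to 6753 CPM in mitosis-high cells, against 3470 to 7042 CPM in mitosis-low cells. Of the somatic markers, Amh, Cyp11a1, Cyp17a1, Hsd3b1, Insl3, C1qa, C1qb, Emr1 and Lyzs were detected in 0 of the 48 cells of both sides, which allows a share of cells with such a count of up to 6.25%. That limit covers counting error in these cells and does not bound the share of cells that express a marker. The summed CPM of Sertoli markers reached 364 in mitosis-high cells (4 of 6 markers detected) and 87.4 in mitosis-low cells (4 of 6). Leydig sums, from Star alone, reached 87.8 in mitosis-high cells (1 of 5 markers detected) and 40.7 in mitosis-low cells (1 of 5). Peritubular myoid sums reached 40.8 in mitosis-high cells (4 of 4 markers detected) and 62.7 in mitosis-low cells (4 of 4). Macrophage sums reached 49.2 in mitosis-high cells (1 of 6 markers detected) and 63.1 in mitosis-low cells (2 of 6), and endothelial sums 141 in mitosis-high cells (3 of 4 markers detected) and 69.2 in mitosis-low cells (3 of 4). The lowest sum of each list was at or near 0 on both sides. The part of these sums in the results was not tested.

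The score ran from 7.67 to 9.37 (median 8.39) in mitosis-high, from 6.20 to 7.67 between, and from 3.72 to 6.13 (median 5.48) in mitosis-low cells. The lowest mitosis-high cell stood 0.0038 above the next cell, and the highest mitosis-low cell stood 0.069 below the one above it, so neither boundary is a gap. The 8 score genes chose the cells, and their values are given as a description. Plk1, the kinase that drives mitotic entry and exit, was at 12.6, 109 and 451 CPM (lowest, median and highest) in mitosis-high cells, against 0, 0.376 and 13.2 CPM in mitosis-low cells. It had the widest difference of the 8, and its count reached 1 in 100% (85.8% to 100%) of mitosis-high and 37.5% (18.8% to 59.4%) of mitosis-low cells (exact Clopper-Pearson 95% intervals, which cover counting error only). Aurka, the centrosomal kinase that activates PLK1, had medians of 155 CPM in mitosis-high and 1.06 CPM in mitosis-low cells. Cdc20, the activator of the anaphase-promoting complex, had 114 CPM in mitosis-high and 10.5 CPM in mitosis-low cells, and Tpx2, a spindle assembly factor, 323 CPM in mitosis-high and 47.4 CPM in mitosis-low cells. The other 4 were abundant on both sides. Mki67, which coats mitotic chromosomes and marks cycling cells, had medians of 541 CPM in mitosis-high and 88.4 CPM in mitosis-low cells, and was detected in 24 of 24 mitosis-low cells. Top2a, the DNA topoisomerase of dividing cells, had medians of 713 CPM in mitosis-high and 381 CPM in mitosis-low cells. Cenpf, a kinetochore protein of late G2, had 1453 CPM in mitosis-high and 633 CPM in mitosis-low cells, and Ccnb1, cyclin B1, 813 CPM in mitosis-high and 263 CPM in mitosis-low cells. Since these genes chose the cells, their levels do not show which cells were in mitosis, and the lower group is called mitosis-low throughout. Of the 71 cells, 44 had all 8 genes detected.

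**Figure D1:**
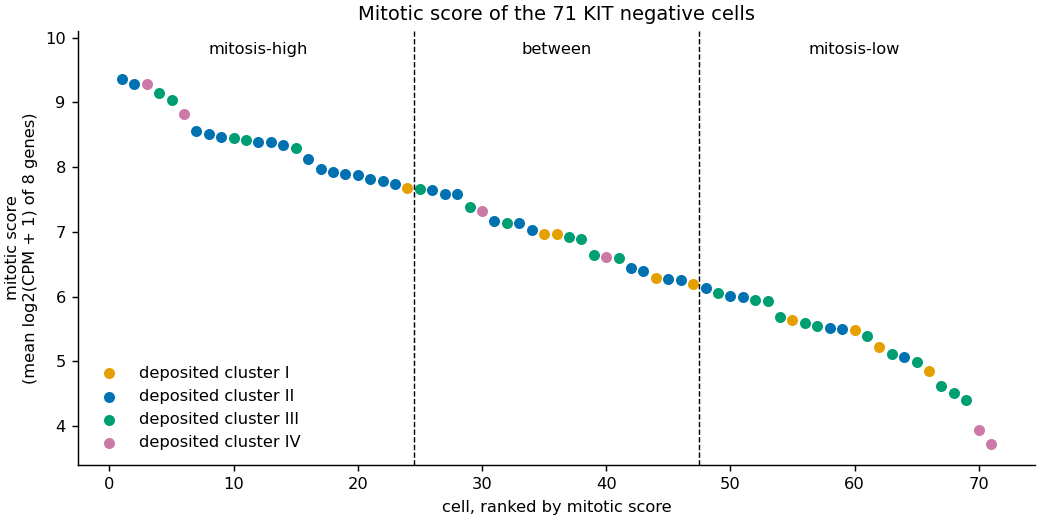
Mitotic score of each of the 71 cells (y axis, mean log2(CPM + 1) of the 8 score genes) against rank (x axis), coloured by deposited cluster, with dashed lines at the edges of the mitosis-high and mitosis-low cells. The score runs from 9.37 down to 3.72 with no wide gap at either dashed line, and cluster II supplies 16 of the 24 mitosis-high cells.

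Beyond the score genes, 877 of 12936 genes (6.78%) were higher by at least 1 in mean log2(CPM + 1) in mitosis-high cells, and 326 (2.52%) were lower by at least 1. At a difference of 2 the numbers were 54 (0.417%) and 15 (0.116%). These genes had an expected count of at least 1 in at least 18 of the 71 cells. The median difference of all of them was 0.11, 0.013 in cluster II and 0.12 in cluster III. The median gene had an SD of 1.67 over the cells of 1 side. Because the cells were chosen by their own RNA, each difference is a description of these cells, with no test. Single cells of 1 side spread widely, and the ranges of the sides overlapped in every gene described below. Mitotic list genes were 45 of the 877, and 9 of the 54 with a difference of at least 2. Of 118 genes in 9 mitotic lists that passed the filter on detection (of 119 listed), 101 were above 0, those 45 (38.1%) were higher by at least 1, and 1, Mybl2, was lower by at least 1. Their median difference was 0.66 in all clusters, 0.58 in cluster II and 0.59 in cluster III. The counts for each list below are to be read beside 6.78% higher and 2.52% lower among all genes.

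Spindle and centrosome proteins differed most. The 15 genes of that list had a median difference of 1.71 (1.15 in cluster II, 1.59 in cluster III), and 9 were higher by at least 1, 6 of them by at least 2. Nusap1, a microtubule-binding protein that bundles spindle fibres, was at 1.48, 79.1 and 445 CPM (lowest, median and highest) in mitosis-high cells, against 0, 5.36 and 265 CPM in mitosis-low cells. A mitosis-high cell exceeded a mitosis-low cell in 86.3% of the 576 pairs of cells, and the count reached 1 in 100% (85.8% to 100%) of mitosis-high against 66.7% (44.7% to 84.4%) of mitosis-low cells. The difference was 3.53 (mean 6.24 ± 1.72 log2(CPM + 1) in mitosis-high against 2.72 ± 2.56 in mitosis-low cells, SD over cells), the largest of the 12936, with 1.17 in cluster II and 3.96 in cluster III. Ckap2l, whose promoter is shown above, was at 0.446, 106 and 487 CPM (lowest, median and highest) in mitosis-high cells, against 0, 3.60 and 203 CPM in mitosis-low cells. Its difference was 2.97 over all clusters, with 2.48 in cluster II and -0.041 in cluster III. Gtse1 was at 0, 183 and 522 CPM (lowest, median and highest) in mitosis-high cells, against 0, 14.6 and 337 CPM in mitosis-low cells. Its difference was 2.85 (1.16 in cluster II and 3.53 in cluster III). Troap, a spindle protein also called tastin, was detected in 19 of 24 mitosis-high and 6 of 24 mitosis-low cells and differed by 2.62. The 1 member below 0 was Sass6, a protein of the centriole cartwheel (-0.44), named after its value was seen.

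The kinesins, motors that move chromosomes and shape the spindle, had a median difference of 1.44 over 12 genes (1.59 in cluster II and 1.06 in cluster III), and 10 were higher by at least 1. Kif23, the motor subunit of centralspindlin, was at 2.90, 189.6 and 959 CPM (lowest, median and highest) in mitosis-high cells, against 0, 12.2 and 384 CPM in mitosis-low cells. Mitosis-low cells reached levels above the mitosis-high median, and a mitosis-high cell was above a mitosis-low cell in 79.7% of pairs. The difference was 2.75 (mean 7.08 ± 1.83 log2(CPM + 1) in mitosis-high against 4.33 ± 2.76 in mitosis-low cells, SD over cells), with 1.92 in cluster II and 3.06 in cluster III. Kif2c, which takes apart microtubules at the centromere, was at 36.5, 224 and 891 CPM (lowest, median and highest) in mitosis-high cells, against 1.29, 67.2 and 284 CPM in mitosis-low cells. Its difference was 2.45, 0.51 in cluster II and 3.74 in cluster III. Kif20b, listed under its older symbol Mphosph1, works in the midzone and in cytokinesis. It differed by 1.82 and a mitosis-high cell was higher in 84.9% of pairs, with medians of 418 CPM in mitosis-high and 125 CPM in mitosis-low cells. Kif18b, a depolymerase of astral microtubules, was detected in 11 of 24 mitosis-high and 4 of 24 mitosis-low cells. Kifc1, a minus-end motor, was the 1 kinesin below 0, at -0.14, and was named after its value was seen.

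Cytokinesis is the division of the cell body. The 8 genes of that list had a median of 1.46 (1.10 in cluster II, 1.23 in cluster III), and 5 were higher by at least 1. Racgap1, the GTPase-activating partner of KIF23, was at 1.13, 97.5 and 484 CPM (lowest, median and highest) in mitosis-high cells, against 0, 25.1 and 176 CPM in mitosis-low cells. It differed by 2.23 (mean 6.38 ± 1.61 log2(CPM + 1) in mitosis-high against 4.15 ± 2.22 in mitosis-low cells, SD over cells), with 0.77 in cluster II and 1.92 in cluster III. Prc1, which bundles antiparallel microtubules of the central spindle, was at 50.02, 338 and 841 CPM (lowest, median and highest) in mitosis-high cells, against 29.1, 109 and 641 CPM in mitosis-low cells. Its differences were close to each other in both clusters, at 1.43 in cluster II and 1.37 in cluster III, beside 1.47 over all clusters, and a mitosis-high cell was higher in 82.6% of pairs. Anln, the anillin scaffold of the contractile ring, differed by 1.47, Cit, the citron kinase of the midbody, by 1.78, and Ect2, the activator of RhoA at the furrow and the fifth of the 5, by 1.46. Cit was detected in 17 of 24 mitosis-high and 8 of 24 mitosis-low cells.

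Cyclins and mitotic kinases had a median difference of 0.70 over 18 genes (0.40 in cluster II and 0.52 in cluster III). Of these, 7 were higher by at least 1 and none was lower by 1. Cdk1, the kinase that drives mitotic entry (listed as Cdc2a), was at 0.446, 130.3 and 471 CPM (lowest, median and highest) in mitosis-high cells, against 0, 45.1 and 174 CPM in mitosis-low cells. Its difference was 1.72 (mean 6.48 ± 2.22 log2(CPM + 1) in mitosis-high against 4.77 ± 2.32 in mitosis-low cells, SD over cells). In cluster III it was -0.045, and in cluster II 0.90. Ccnb2, cyclin B2, differed by 1.35 and Ccna2, cyclin A2 of S and G2, by 1.32. Ccna2 had medians of 171 CPM in mitosis-high and 81.4 CPM in mitosis-low cells, and 0.66 and 2.17 as its differences in clusters II and III. Cdc25b, the phosphatase that starts CDK1 activation, was detected in 8 of 24 mitosis-high and 3 of 24 mitosis-low cells (difference 1.33, 0.21 in cluster II and 0.043 in cluster III). Aurkb, the kinase of the chromosomal passenger complex, had medians of 67.99 CPM in mitosis-high and 56.1 CPM in mitosis-low cells and differed by 0.10. It was singled out after its values were seen, since its relative Aurka is in the score.

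Kinetochore and checkpoint genes had smaller medians than spindle genes. The 17 kinetochore genes had a median of 0.53 (0.46 in cluster II and -0.044 in cluster III), and 4 were higher by at least 1. Cenpe, the kinetochore motor that carries chromosomes to the spindle equator, was at 171, 734 and 8247 CPM (lowest, median and highest) in mitosis-high cells, against 7.16, 279 and 746 CPM in mitosis-low cells. It was detected in all 48 cells, and a mitosis-high cell was above a mitosis-low cell in 87.3% of pairs, the highest share named here outside the score genes. The difference was 1.63 (mean 9.50 ± 1.09 log2(CPM + 1) in mitosis-high against 7.87 ± 1.48 in mitosis-low cells, SD over cells), with 0.90 in cluster II and 1.28 in cluster III. Casc5, the KNL1 scaffold, differed by 1.68, Ska2, which helps kinetochores track microtubule ends, by 1.40, and Spc25, part of the NDC80 complex, by 1.00. In cluster III they stood at 0.16, 2.29 and -0.18. All 11 genes of the spindle checkpoint and the chromosomal passenger complex were above 0, with a median of 0.56, and 5 were higher by at least 1. Bub1, the checkpoint kinase, had medians of 182 CPM in mitosis-high and 86.8 CPM in mitosis-low cells (difference 1.19). Ttk, the kinase MPS1, differed by 1.18, the shugoshin gene Sgol1, a protector of cohesion, by 1.49, and Bub1b, the fifth of them, by 1.07. Mad1l1, which recruits MAD2, differed by 1.54 over all clusters, with 1.38 in cluster II and -1.57 in cluster III.

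Genes of chromosome structure and of proteolysis at anaphase made up the next lists. Of 11 condensin and cohesin genes, 10 were above 0 with a median of 0.59, and 1 was higher by at least 1: Ncaph, a subunit of condensin I (1.20). Pttg1, securin, which holds separase in check, differed by 0.92, Smc2, a core ATPase of condensin, by 0.67 and Ncaph2, a subunit of condensin II, by 0.62. The 15 genes of the anaphase-promoting complex and its partners had a median of 0.36, and 3 were higher by at least 1. Ube2c, the ubiquitin-conjugating enzyme of that complex, was at 30.1, 114 and 304 CPM (lowest, median and highest) in mitosis-high cells, against 5.14, 38.4 and 116 CPM in mitosis-low cells. The count reached 1 in all 48 cells, and the mitosis-high cell was higher in 85.1% of pairs. Its difference was 1.44 (mean 6.73 ± 0.95 log2(CPM + 1) in mitosis-high against 5.29 ± 1.02 in mitosis-low cells, SD over cells), and it was larger within cluster II (2.12) and cluster III (2.14). The subunit gene Cdc23 differed by 1.86 over all clusters but by -1.43 in cluster III, and Fzr1, the CDH1 activator, by 1.18 over all clusters and -0.21 in cluster II.

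**Figure D2:**
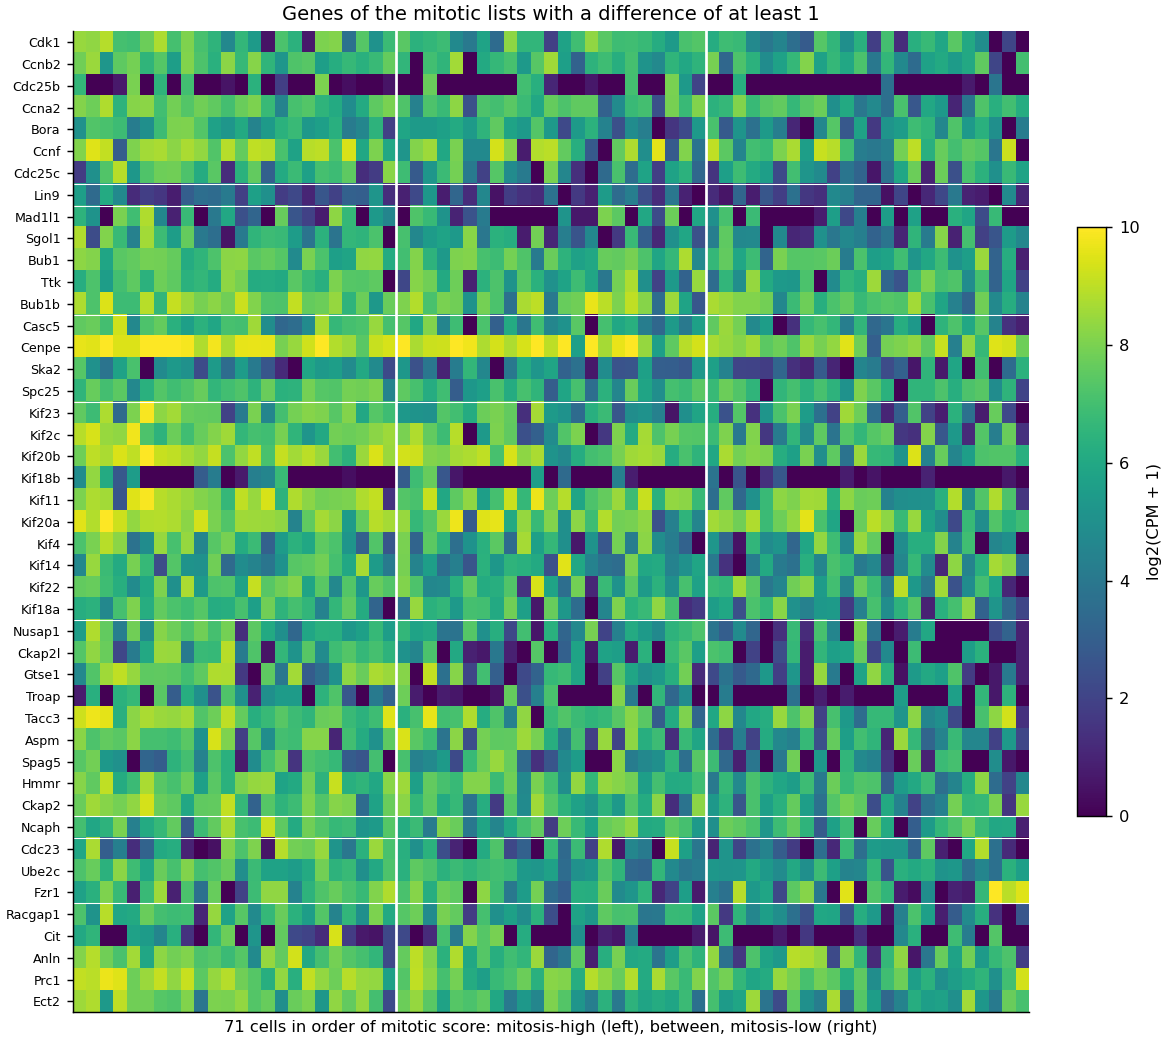
Log2(CPM + 1) of the 45 mitotic list genes with a difference of at least 1 (y axis, grouped by list) in the 71 cells ordered by score (x axis), with white lines at the edges of the mitosis-high cells on the left and the mitosis-low cells on the right. Colours stop at 10. Cenpe, Kif20a and Kif20b are bright across most cells, and Kif18b, Cdc25b and Troap are dark in most mitosis-low cells.

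The transcription factors of late cell cycle genes gave a mixed picture. They numbered 11, with a median difference of 0.033 (-0.078 in cluster II and 0.33 in cluster III) and 1 gene higher and 1 lower by at least 1. Mybl2, which encodes B-MYB, was at 0, 23.8 and 228 CPM (lowest, median and highest) in mitosis-high cells, against 0, 78.7 and 602 CPM in mitosis-low cells. It was lower in mitosis-high cells by 2.14 (mean 3.78 ± 2.95 log2(CPM + 1) in mitosis-high against 5.92 ± 2.56 in mitosis-low cells, SD over cells), was undetected in 6 mitosis-high cells and 2 mitosis-low cells, and stood at -0.91 in cluster II and -3.14 in cluster III. Foxm1 had a median of 144 CPM in mitosis-high and 72.7 CPM in mitosis-low cells, with a difference of 0.95 (0.50 in cluster II and 0.57 in cluster III). Lin9, a MuvB subunit, differed by 1.01 at low levels (mean 3.10 ± 1.62 log2(CPM + 1) in mitosis-high against 2.09 ± 1.52 in mitosis-low cells, SD over cells). Nfyb, a subunit of NF-Y, differed by -0.79.

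Genes of S phase leaned the other way. Of 45 genes in the S phase lists that passed (46 in the table), 33 were below 0, 4 were lower and 1 was higher by at least 1, and the median was -0.21 (-0.24 in cluster II, -0.43 in cluster III). Among the cells with over 1000000 counts alone, with 21 cells per side, that median was -0.09. Cdc6, which loads the replicative helicase at origins, was at 0, 49.7 and 310.0 CPM (lowest, median and highest) in mitosis-high cells, against 0.462, 144 and 462 CPM in mitosis-low cells. Its difference was -1.21 (mean 5.09 ± 2.75 log2(CPM + 1) in mitosis-high against 6.30 ± 2.21 in mitosis-low cells, SD over cells), with -1.09 in cluster II and -1.44 in cluster III. The mitosis-high cell was above the mitosis-low cell in 37.5% of pairs. Also lower by at least 1 were Orc1 of the origin recognition complex (-1.02, 0.18 in cluster III) and Rfc3 of the clamp loader (-1.01). Clspn, the checkpoint adaptor claspin, differed by -0.91, and Ung, which removes uracil from DNA, by -0.82. Usp1, which deubiquitinates PCNA and FANCD2, was the 1 member higher by at least 1 (1.12), and Gins1 of the helicase complex stood at 0.89. Pcna itself, the sliding clamp, had medians of 222 CPM in mitosis-high and 286 CPM in mitosis-low cells (difference -0.013, chosen after its values were seen). Over the 46 S phase genes, the mean per cell had a median of 6.40 in mitosis-high and 6.68 in mitosis-low cells. The score had a Spearman rho of -0.282 and a Pearson r of -0.130 with it over 71 cells, and 0.722 and 0.700 with the mean of the 118 mitotic genes, all from the same libraries.

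**Figure D3:**
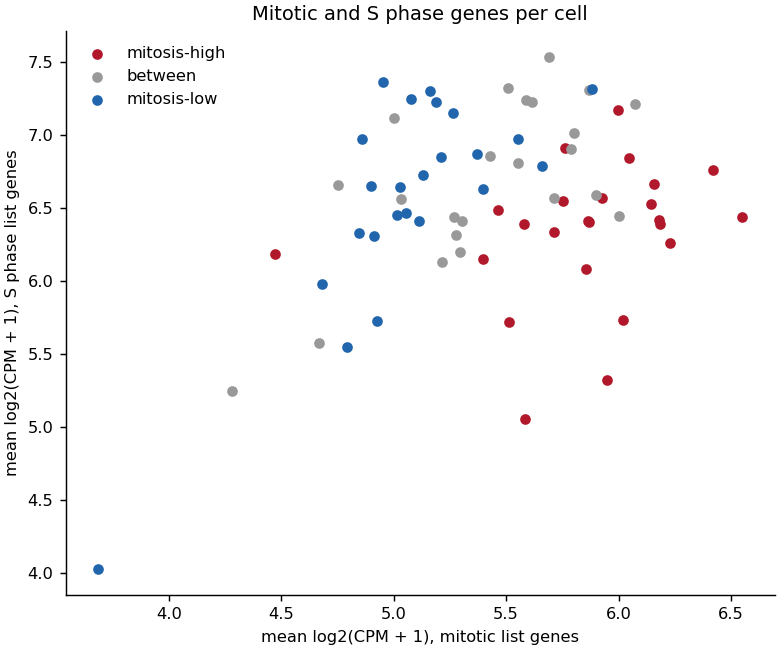
Mean log2(CPM + 1) of the 118 mitotic list genes (x axis, score genes left out) and of the 46 S phase list genes (y axis) in each cell, coloured by side. Along the mitotic axis mitosis-high cells run from 4.47 to 6.55 and mitosis-low cells from 3.69 to 5.88, and along the S phase axis mitosis-high cells run from 5.05 to 7.17 and mitosis-low cells from 4.02 to 7.36, so the sides overlap on both. The mitosis-low cell at the lower left is the one with the lowest score.

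Of 17 genes of G1 cyclins and CDK inhibitors, 2 (11.8%) were higher by at least 1, beside 6.78% of all genes, and none was lower. Their median was 0.21, with -0.56 in cluster II and 0.51 in cluster III. Rbl2, the pocket protein p130, was detected in 66.7% (44.7% to 84.4%) of mitosis-high and 12.5% (2.66% to 32.4%) of mitosis-low cells and differed by 2.00, with 1.83 in cluster II and 1.78 in cluster III. Rbl1, its relative p107, differed by 1.06 over all clusters and by -0.033 in cluster II. Ccnd2, cyclin D2, stood high on both sides, at medians of 1267 CPM in mitosis-high and 1009 CPM in mitosis-low cells (difference 0.15). Among 14 DNA damage genes none was higher and 1 was lower by at least 1: Brca1, of homologous recombination, at -1.22 over all clusters, -1.87 in cluster II and 0.41 in cluster III. The median of those 14 was 0.30 over all clusters, -0.038 in cluster II and -0.32 in cluster III. Of 15 histone genes 1, Hist1h1e, was lower by at least 1 (-1.07). Near-identical histone genes can share reads, so it is uncertain.

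Genes that mark all germ cells showed little difference between the sides. Of 11 pan-germ cell genes none differed by 1 in either direction, with a median of -0.007 (0.024 in cluster II and -0.012 in cluster III). Ddx4, the germ cell RNA helicase, was at 182, 599.7 and 1245 CPM (lowest, median and highest) in mitosis-high cells, against 118, 569 and 1593 CPM in mitosis-low cells. Its ranges overlapped nearly in full (difference 0.14). Of 14 genes of stem cell self-renewal, 1 (7.14%) was higher by at least 1, beside 6.78% of all genes. The median of the 14 was 0.26, with -0.19 in cluster II and 0.074 in cluster III. The higher gene was Lhx1, a transcription factor induced by GDNF (1.76 over all clusters, 0.11 in cluster II and 0.43 in cluster III). Gfra1, the GDNF co-receptor, had medians of 63.96 CPM in mitosis-high and 102 CPM in mitosis-low cells (difference 0.25). The direction for Gfra1 thus depended on whether medians or mean log2 values were compared. Etv5, a GDNF and FGF target, differed by 0.40 over all clusters but by -1.29 in cluster II and -0.61 in cluster III. Id4 differed by 0.063 and Zbtb16, the factor PLZF, by -0.19. Pou5f1, whose regulatory sequence drives the reporter used in the sort, had medians of 4.80 CPM in mitosis-high and 12.8 CPM in mitosis-low cells and differed by -0.76. Plaur was detected in 54.2% (32.8% to 74.4%) of mitosis-high and 16.7% (4.74% to 37.4%) of mitosis-low cells and differed by 0.60.

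Of 9 genes of differentiating spermatogonia, 5 were above 0 and 4 below, with a median of 0.15 (0.76 in cluster II and 0.23 in cluster III). Of the 9, 2 were higher by at least 1, beside 6.78% of all genes. Kit, the receptor whose surface protein was selected against, was at 0, 1.31 and 302 CPM (lowest, median and highest) in mitosis-high cells, against 0, 0.778 and 25.2 CPM in mitosis-low cells. Its count reached 1 in 58.3% (36.6% to 77.9%) of mitosis-high and 41.7% (22.1% to 63.4%) of mitosis-low cells, and the highest mitosis-low cell lay far under the highest mitosis-high cell. The difference was 1.63 (mean 2.68 ± 3.21 log2(CPM + 1) in mitosis-high against 1.06 ± 1.35 in mitosis-low cells, SD over cells), and it was 0.76 in cluster II and 0.44 in cluster III. Prss50, a testis protease listed as Tsp50, differed by 1.07 over all clusters and by -2.20 in cluster III. The 6 progenitor genes had a median of -0.033 with none past 1, and their median was 0.92 in cluster II and 0.23 in cluster III. Of 16 meiotic genes, 1 was lower by at least 1: Stag3, a meiotic cohesin subunit (-1.31 over all clusters, 0.37 in cluster II and -2.78 in cluster III). The median of those 16 was -0.10 over all clusters, 0.050 in cluster II and 0.044 in cluster III.

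Genes of metabolism and translation had medians near 0 over all clusters. Of 20 oxidative phosphorylation genes none passed 1 (median -0.021, -0.051 in cluster II and 0.059 in cluster III), and of 17 glycolysis genes 1 did, the glucose transporter gene Slc2a1 (1.40, median of the list -0.12, -0.20 in cluster II and -0.40 in cluster III). That was 5.88% of the glycolysis genes, beside 6.78% of all genes. Of 19 ribosomal protein genes, 15 were below 0 and 1, Rps4x, was lower by at least 1 (-1.03), with a median of -0.17, -0.10 in cluster II and 0.09 in cluster III. Processed copies of ribosomal protein genes can share their reads. Of 15 p53 targets and apoptosis genes, 3 (20%) were higher by at least 1, beside 6.78% of all genes. The median of the 15 was 0.53 (0.16 in cluster II and 0.77 in cluster III). The 3 were Bax, which opens the mitochondrial membrane (1.20), Sesn1, a stress-induced inhibitor of mTORC1 signalling (1.09), and Mdm2, the ubiquitin ligase of p53 (1.03). Of 13 immediate early genes none passed 1, with a median of 0.34, and with -0.16 in cluster II and 0.51 in cluster III.

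**Figure D4:**
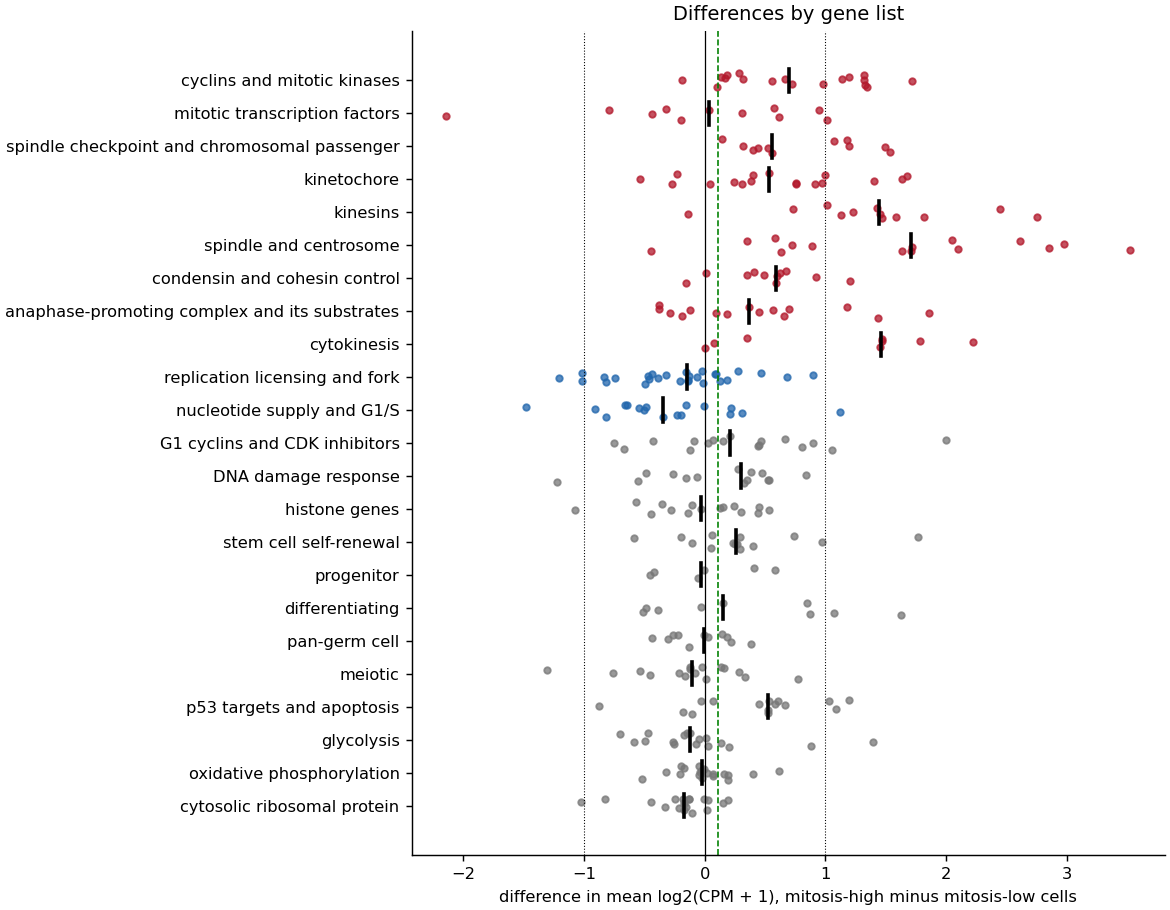
Difference in mean log2(CPM + 1), mitosis-high minus mitosis-low cells, for each gene that passed the detection filter (points) in each list, with the list median (black bar), the median of all genes at 0.11 (dashed green line) and differences of 1 in size (dotted lines). Kinesin, spindle and cytokinesis medians lie above 1, and both S phase medians lie below 0.

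Among genes detected in at least 36 cells, 10 of the 15 largest positive differences belonged to none of the lists. Fbxo28, an F-box protein, was at 0, 72.4 and 311 CPM in mitosis-high cells (lowest, median and highest), against 0, 2.29 and 268 CPM in mitosis-low cells, a difference of 2.94. The row Rpo1-4, the older symbol of Polr1a for the largest subunit of RNA polymerase I, differed by 2.66, with medians of 127 CPM in mitosis-high and 18.2 CPM in mitosis-low cells and 3.01 and 1.84 in clusters II and III. Next came Vps39 of the lysosomal tethering complex HOPS (2.64), the integrin subunit gene Itgb5 (2.62), the kinase A scaffold gene Akap12 (2.50), Prkab1, a regulatory subunit of AMPK (2.50), the peroxisomal transporter gene Abcd3 (2.47), the calcium sensor gene Stim2 (2.41), the centrosomal gene Cep63 (2.41) and Pcnx (2.40). Their differences were above 0 in both clusters, from 0.23 for Abcd3 in cluster II to 3.66 for the same gene in cluster III.

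Of the 15 most negative differences among those genes, the largest in size was that of the microtubule-associated protein gene Mtap1s (Map1s). Mtap1s was at 0, 28.9 and 291 CPM (lowest, median and highest) in mitosis-high cells, against 6.80, 152 and 529 CPM in mitosis-low cells. It was lower in mitosis-high cells by 2.53, and a mitosis-high cell exceeded a mitosis-low cell in 22.9% of pairs (-2.05 in cluster II and -3.40 in cluster III). Sec24a, a coat protein of vesicles that leave the endoplasmic reticulum, stood at -2.39, Ccdc22 at -2.30, Hira, the chaperone of histone H3.3, at -2.22 and Sugt1, a co-chaperone that acts in kinetochore assembly, at -2.20. Sugt1 was detected in 24 of 24 mitosis-low cells and had medians of 20.6 CPM in mitosis-high and 105 CPM in mitosis-low cells. The row 6330442E10Rik (Tmem229b) stood at -2.20, the phospholipase gene Plcg2 at -2.16, Mybl2 at -2.14, the actin regulator gene Flii at -2.11, the glycogen phosphorylase gene Pygl at -2.07 and the dynactin subunit gene Dctn2 at -2.03. Asb8, Rabep2 and Glt8d1 were between -1.92 and -1.98. D1Pas1 (-2.23) is a copy of an X-linked RNA helicase gene and may share its reads, so it is uncertain. All 15 were below 0 in both clusters.

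**Figure D5:**
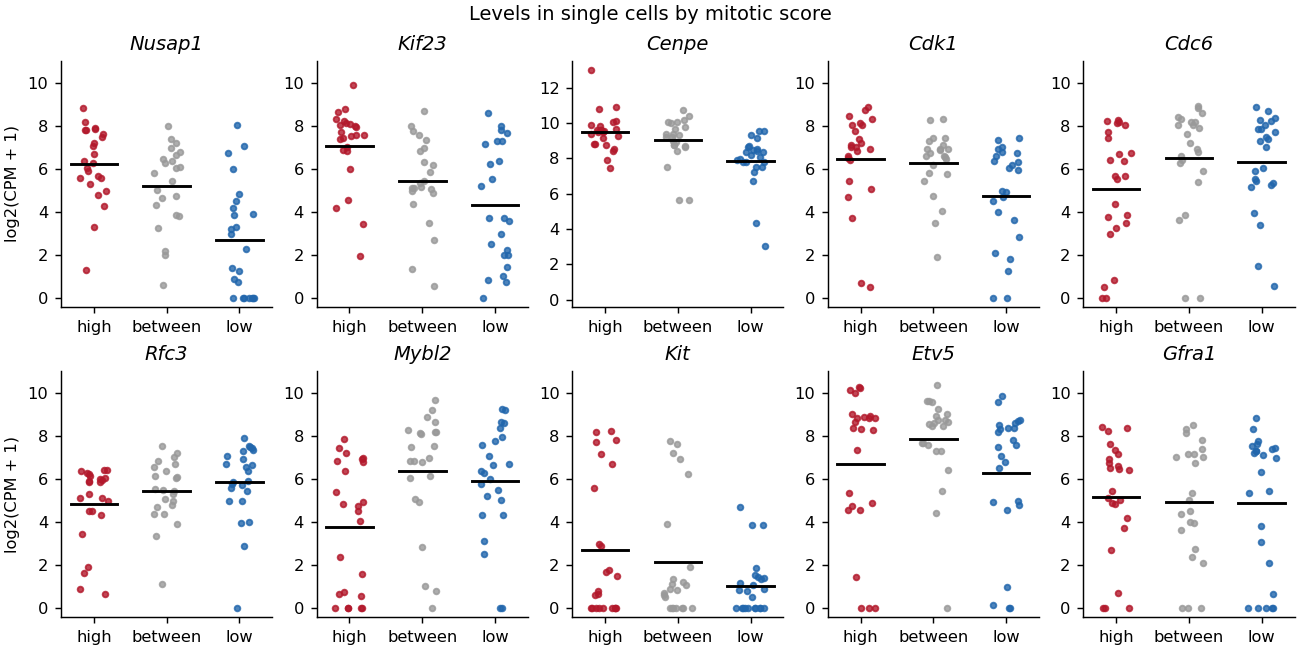
Log2(CPM + 1) of 10 genes in single cells (points), with mitosis-high cells at the left, the cells between in the middle and mitosis-low cells at the right, and the mean of each as a black bar. Nusap1, Kif23, Cenpe and Cdk1 have their highest means at the left, Cdc6, Rfc3 and Mybl2 their lowest, and the Gfra1 and Etv5 means differ by 0.25 and 0.40 between the outer groups.

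The 23 cells between the sides entered neither mean, but the same score placed them there. The genes counted here were also chosen for a gap between the outer means. A middle mean inside that gap is therefore a description and no separate support for a gradient. Of the 45 mitotic list genes that were higher by at least 1, 42 had their mean in these cells between the means of the sides, and so did 678 of the 877 higher genes and 244 of the 326 lower genes. Nusap1 averaged 6.24 ± 1.72 log2(CPM + 1) in mitosis-high, 5.21 ± 1.90 in between and 2.72 ± 2.56 in mitosis-low cells (SD, 24, 23 and 24 cells). Cdk1 averaged 6.48 ± 2.22 in mitosis-high, 6.25 ± 1.51 in between and 4.77 ± 2.32 in mitosis-low cells, so its level between was close to that of mitosis-high cells. Cdc6 and Mybl2 were highest between: Cdc6 averaged 5.09 ± 2.75 in mitosis-high, 6.52 ± 2.51 in between and 6.30 ± 2.21 in mitosis-low cells. Mybl2 averaged 3.78 ± 2.95 in mitosis-high, 6.37 ± 2.76 in between and 5.92 ± 2.56 in mitosis-low cells.

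The CD87 sorted libraries are samples that the ranking of cells did not use, and they allow a test of whether the same genes differ between sorts. None of the 8 score genes passed. Of 12715 genes tested with limma on log2(TPM + 1), 3 (0.0236%) rose and 0 (0.0%) fell in CD87 positive cells at an adjusted p under 0.05, and 428 were higher and 201 lower before adjustment (p under 0.05). The 3 were Apoe, a lipid carrier protein gene, at 189 and 128 TPM in CD87 positive libraries, against 4.28 and 4.48 TPM in CD87 negative libraries (limma adjusted p = 0.00341), the macrophage marker Lyzs (Lyz2), a lysozyme gene, at 62.1 and 41.5 TPM in CD87 positive libraries, against 0 and 0 TPM in CD87 negative libraries (limma adjusted p = 0.0128), and Tmsb4x, an actin-binding thymosin gene, at 57.9 and 59.5 TPM in CD87 positive libraries, against 4.34 and 3.42 TPM in CD87 negative libraries (limma adjusted p = 0.0237). Apoe and Tmsb4x were named after their values were seen. Plaur, the gene of the sorted protein, was not called (log2 difference 1.98, limma adjusted p = 0.863). It was at 3.53 and 8.92 TPM in CD87 positive libraries, against 0.46 and 0.97 TPM in CD87 negative libraries. Without a variance trend limma called 0 genes. The 3 genes called had log2 differences of 3.62 to 5.69. With 2 libraries per group, smaller differences, such as that of Plaur, were not called. Nor were all differences within that range. C1qa (log2 difference 3.71, limma adjusted p = 0.389) and C1qb (log2 difference 3.99, limma adjusted p = 0.252) were not called. A count of 0 calls therefore does not show that a set of genes is equal between the sorts. The 6 macrophage markers summed to 124 and 104 TPM in CD87 positive libraries, against 2.67 and 1.40 TPM in CD87 negative libraries. The CD87 negative values of Lyzs, Tyrobp, C1qa, C1qb and Emr1 were all 0. Of the 5 tested, 1 was called. The 6 Sertoli markers summed to 65.1 and 9.97 TPM in CD87 positive libraries, against 70.9 and 135 TPM in CD87 negative libraries, with none called. Leydig, peritubular myoid and endothelial markers had none called either, and their sums reached at most 10.8 TPM. The part of these cell types in the differences between the sorts was not tested. Of the 126 mitotic genes, score genes included, 0 were called by limma. At an unadjusted limma p under 0.05, 3 of them were higher and 0 lower, beside 428 and 201 of all 12715 genes. These were Cep55 of abscission, Incenp of the passenger complex and Ncaph, named by that p. The 126 had a median log2 difference of 0.22, beside 0.015 for all genes, and 88 were above 0, beside 6486 of all 12715 genes. Medians of the other lists ran from -0.57 (progenitor) to 1.17 (stem cell self-renewal), with 0.40 for glycolysis and 0.42 for DNA damage genes. A median above that of all genes was thus not particular to the mitotic lists. In bulk libraries, fewer cells of a type and less RNA per cell cannot be told apart. CD87 positive library 2 listed 12063 genes above 0, against 16267 in CD87 positive library 1 and 15147 to 15579 in the CD87 negative libraries. TPM keeps no depth, so the depth of these libraries is unknown.

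Mki67 was at 49.98 and 65.2 TPM in CD87 positive libraries, against 37.9 and 37.1 TPM in CD87 negative libraries (log2 difference 0.59, limma adjusted p = 0.863). Both CD87 positive libraries lay above both CD87 negative ones, as they did for Top2a, at 70.3 and 83.1 TPM in CD87 positive libraries, against 51.2 and 52.6 TPM in CD87 negative libraries (log2 difference 0.55, limma adjusted p = 0.863). The share of all genes with this order was not counted. Plk1, at 34.7 and 24.3 TPM in CD87 positive libraries, against 28.3 and 41.99 TPM in CD87 negative libraries, overlapped (log2 difference -0.24, limma adjusted p = 0.922). So did Aurka (log2 difference -0.11, limma adjusted p = 0.971) and Ccnb1 (log2 difference 0.019, limma adjusted p = 0.992). Cdk1 was at 24.6 and 75.1 TPM in CD87 positive libraries, against 18.3 and 20.9 TPM in CD87 negative libraries (log2 difference 1.10, limma adjusted p = 0.863), where CD87 positive library 2 stood apart. Among the genes with the largest differences in cells, Nusap1 was at 14.2 and 11.3 TPM in CD87 positive libraries, against 7.31 and 12.7 TPM in CD87 negative libraries (log2 difference 0.36, limma adjusted p = 0.904), Kif23 at 19.2 and 23.3 TPM in CD87 positive libraries, against 14.6 and 15.5 TPM in CD87 negative libraries (log2 difference 0.47, limma adjusted p = 0.863) and Mybl2 at 19.9 and 7.60 TPM in CD87 positive libraries, against 20.8 and 28.6 TPM in CD87 negative libraries (log2 difference -0.92, limma adjusted p = 0.863). Of the 46 S phase genes 0 were called and 33 were above 0, beside 6486 of all 12715 genes. Their median was 0.31, so in these libraries the mitotic and S phase medians lay on the same side of 0. Of the 877 genes higher in mitosis-high cells, 842 were tested and 0 called, with a median of 0.044. Of the 326 lower genes, 322 were tested and 0 called, with a median of -0.011. Without CD87 positive library 1, limma called 13 of the 126 mitotic genes higher and 8 lower, and 7 of the 46 S phase genes higher and 1 lower, among 1169 higher and 1819 lower genes in all; the lone CD87 positive library was then assumed to vary like the CD87 negative ones. Without CD87 negative library 1 the mitotic median was 0.079 and the S phase median 0.16. The labels name no animal for these libraries, so the p-values measure the spread between libraries, which may be technical.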

How the data were processed

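Per the labels' protocols, cells were captured on a Fluidigm C1 machine with Nextera XT libraries, and RNA of CD87 sorted cells was amplified with Smart-seq2. The authors deposited expected counts per gene for the cells, made with Trim Galore and Salmon on build mm9, and TPM for the CD87 libraries, made with Trim Galore and RSEM on mm9, per the submitters' processing notes. The annotation, like each version, is not given in the sources used here. The cell columns are named P6 where the titles say P5.5, and the label's age was used. Other libraries of the series were not analysed here.

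Of 27128 gene rows, 22 had names turned into dates. They stayed in the column total, of which they held at most 0.609%, and were not analysed as genes. Expected counts were used unrounded as CPM of the column total and shown as log2(CPM + 1), which understates differences of low genes and is not adjusted for length, so levels were compared within a gene. A gene entered with an expected count of at least 1 in at least 18 of 71 cells, which gave 12936, and was counted at a difference of 1 in size. No test was made over cells. Of 417 entries in 30 gene lists, 388 matched directly, 25 through an older symbol in RefSeq (GRCm38.p6, names and promoters alone), and 4 not at all. The members and lists were chosen with earlier results of these data known. Genes were named by rule: the 15 highest and 15 lowest among those past a difference of 1 and detected in at least 36 cells, up to 4 per list by size, and Gfra1, Etv5, Id4, Kit, Pou5f1, Plaur, Ccnd2, Ddx4, Zbtb16 and the 8 score genes. Exceptions are marked where they stand or are the remaining members of a count of 5 or fewer.

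CD87 libraries (2 against 2) were compared on log2(TPM + 1) with limma 3.58.1 (R 4.3.3), with trend, two-sided, with Benjamini-Hochberg adjustment, over the 12715 genes that reached 1 TPM in at least 2 libraries. TPM carries the authors' length and library scaling and was not rescaled here. The deposited values summed to 584064 and 635203 in CD87 positive libraries 1 and 2. In CD87 negative libraries 1 and 2 they summed to 580440 and 610573. The sums thus differ between libraries, and their part in small differences was not tested. Both calculations were tested on simulated data. Alternatives covered scaling, depth, pseudocount, filter, cells per side, score, cluster, fold, variance model, pairing and leaving out each library. Results for 1 listed gene are not reported here.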

Additional observations from a re-analysis of the deposited data

How the results depend on the processing

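The number of genes higher by at least 1 in mitosis-high cells (877) moved to 1556 with medians over cells, 142 with log2(CPM + 10), 2058 with 12 cells per side, 558 with 35 per side, 2000 within cluster III and 54 at a difference of 2. The number lower (326) moved to 699, 33, 679 and 135 under the first 4 of these, to 1028 within cluster II, to 1346 within cluster III and to 15 at a difference of 2. Of the list medians under the alternatives, 273 moved by less than the spread over cells and 3 by more. Of the named genes, 1398 values stayed, 7 moved and 12 reversed. A value stayed if it changed by less than the SD of its gene over cells, which was 1.67 for the median gene. Reversal was counted only where the main difference was at least 1 in size. The changed sign of Etv5 within both clusters is therefore not among the 12, and a value that stayed may still differ widely. Within cluster III the reversed differences were Brca1 0.41, Cdc23 -1.43, Cdk1 -0.045, Ckap2l -0.041, Mad1l1 -1.57, Orc1 0.18, Spc25 -0.18 and Prss50 -2.20, within cluster II they were Fzr1 -0.21, Rbl1 -0.033 and Stag3 0.37, and with 12 cells per side Prss50 was at -0.056. The cause was not tested. Ranking only the 63 cells with over 1000000 counts (21 per side), an alternative chosen after seeing the data, gave 1099 higher and 333 lower genes, and moved the S phase median to -0.090, against -0.21 with all cells. The median of all genes lay between 0.013 and 0.21 across the settings.

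Between CD87 libraries, 3 genes were called higher by limma, 1 with log2(TPM + 0.1), 1 without a filter on low values and 0 without a trend. With the replicate number as a block, 84 were called higher and 46 lower, against 3 and 0, and 1 of 46 S phase genes (higher) and 0 of 126 mitotic genes were among them. The deviations of libraries with the same number had a correlation of 0.068 over 12715 genes, and with 2 pairs the libraries share only a number. Leaving out each library in turn gave 8 to 1169 higher and 1 to 1819 lower genes, with the most without CD87 positive library 1, where 13 mitotic genes were called higher and 8 lower, and 7 S phase genes higher and 1 lower. Without any other single library 0 of either were called. The medians then ranged from 0.079 to 0.373 for mitotic and from 0.159 to 0.463 for S phase genes. With 1 library left in a group, it was assumed to vary like the other group.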
